A study of Gallus gallus with 15 samples.

Results

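A set of 102 genes, out of 24881 measured in germinal discs of laying hens, stood at least 2 times above the median library in both corticosterone replicate 1 and corticosterone replicate 2. The level used for the choice was CPM, the count of a gene divided by the column total and multiplied by 1000000, with 0.5 CPM added before each ratio, and the median was taken over all 15 libraries. The members were chosen by their values in corticosterone replicates 1 and 2, which are therefore given as a description, without a test. The other 13 libraries entered the choice only through the median. Genes of the opposite kind, at no more than 0.5 times the median in both of these pools, numbered 1. With 0.5 CPM added, a gene whose median is under 0.5 CPM cannot fall to that ratio even without any counts.

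The germinal disc is the small patch of cytoplasm on the surface of the yolk that carries the chromosomes of the oocyte, and it lies under a layer of granulosa cells, the somatic cells that line the follicle. Corticosterone, the main glucocorticoid of birds, and testosterone, the principal androgen, both act through nuclear receptors that bind DNA and change transcription. A piece cut from the follicle can hold oocyte cytoplasm, granulosa cells and adjoining tissue in shares that differ from bird to bird. In bulk RNA, more cells of a type and more RNA per cell cannot be told apart.

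All birds were female White Leghorn layers. The corticosterone group received 1.5 mg of the hormone in 0.5 ml of peanut oil, the testosterone group received 1.5 mg in the same volume, and the control group received 0.5 ml of the oil alone, so that every group carried the injection and the vehicle. Injection preceded the predicted ovulation by 5 h, and F1 follicles, the largest of the ovary, were taken about 1.5 h later, which is 3.5 h before ovulation. Each group had 5 libraries of pooled RNA, described as biological replicates. The design text gives 8 hens per pool and the extraction protocol gives 9 discs, so the pool size is uncertain, and no label says which hens shared a pool or gives a date. A test over these libraries measures the spread between pools.

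The deposited identifiers are not paired with gene names, and 0 of them matched the reference gene table used here. The members therefore cannot be given roles, and the labelled tissue could not be checked against marker genes. The identifiers printed are those of the member of highest median level and of the member furthest above the median in both pools, and the other members are described by rank and range. Apart from these 2, the members described singly were chosen after their values were seen.

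Total counts of 14 libraries lay between 24550108 and 33795073, and testosterone replicate 5 had 12913729. Corticosterone replicate 1 had 31401787 counts, corticosterone replicate 2 had the 24550108 that is the lowest of the 14, and testosterone replicate 2 had 26647984. The TMM scaling factor, a measure of how the bulk of genes is shifted against the total, was 1.04 in corticosterone replicate 1, 1.07 in corticosterone replicate 2 and 0.991 in testosterone replicate 2, with the others between 0.967 and 1.03. The 100 most abundant genes held 24.9%, 24.3% and 26.1% of the counts in these 3 libraries, and between 25.1% and 28.4% in the other 12. With TMM or RLE scaling in place of the column total, 91 of the 102 genes met the rule and no other gene did, and the part of library composition in the results was not tested further.

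At baseline the members were mostly scarce transcripts. The median level over the 15 libraries was under 1 CPM for 57 of the 102 members, at least 1 CPM for 45 and at least 10 CPM for 8, and it was 0 for 2 members. The middle member stood at 0.767 CPM, and the range went up to 117 CPM. Reads were nonetheless plentiful in the pools that chose the set, with a median of 144.5 counts per member in corticosterone replicate 1 and 112.5 in corticosterone replicate 2. In corticosterone replicate 1, 18 members had fewer than 50 counts. In corticosterone replicate 2 the lowest member had 15 counts and the first quartile was 48.

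The ratio to the median library ranged over the members from 2.01 to 29.4 in corticosterone replicate 1, with a median of 3.17, and from 2.01 to 28.9 in corticosterone replicate 2, with a median of 2.91. Ratios of at least 4 were found for 33 members in the first pool, 25 in the second and 23 in both. The last member to enter had ratios of 2.01 in corticosterone replicate 1 and 3.23 in corticosterone replicate 2, and the first gene left out had 1.98 and 2.23 in the same pools. Another 23 genes passed only in corticosterone replicate 1, where their median ratio in the other pool was 1.50, and 42 passed only in corticosterone replicate 2, with a median ratio of 1.62 in corticosterone replicate 1.

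In all, the 102 members summed to 1475 CPM in corticosterone replicate 1 (95% Clopper-Pearson interval 1461 to 1488) and 1436 CPM in corticosterone replicate 2 (1421 to 1451). They summed to 298, 336 and 331 CPM in corticosterone replicates 3 to 5. The sums were 412, 714, 284, 298 and 348 CPM in testosterone replicates 1 to 5 and 552, 520, 432, 314 and 391 CPM in control replicates 1 to 5. Testosterone replicate 2, at 714 CPM (704 to 724), was thus the highest library after the pair that chose the set, and the remaining corticosterone pools all lay below 342 CPM, the median of the other 12 libraries. These intervals cover counting error only. The set took 0.147% of the counts in corticosterone replicate 1, 0.144% in corticosterone replicate 2 and 0.0714% in testosterone replicate 2, against 0.0284% to 0.0552% in the other 12 libraries.

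Testosterone replicate 2 carried part of the set. There, 48 of the 102 members (47.1%) stood at least 2 times above the median, a level that 0.201% of all genes reached in that library and 0.344% of the genes that attained 0.5 CPM in any library. Seen from the other side, only 50 genes in all reached it in testosterone replicate 2, and 48 of these (96.0%) were members. One of the 2 remaining genes had ratios of 1.94 and 2.06 in corticosterone replicates 1 and 2, just short of membership, and the other had 1.40 and 1.38. In 79 of 102 members the level in testosterone replicate 2 exceeded that of all 12 remaining libraries, as it did in 3.8% of the 14541 genes that attained 0.5 CPM in any library. In 96 it stayed below both corticosterone replicate 1 and corticosterone replicate 2. Any member under 2 times the median in testosterone replicate 2 is below both by the rule. Only the 48 could have differed, and 42 of them were below both.

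The remaining pools did not carry the set in this way. Control replicate 1 had 4 members at 2 times the median or more (3.92% of members, beside 0.113% of all genes in that library). Control replicate 2 had 2 (1.96%, beside 0.0442%) and control replicate 3 had 1 (0.980%, beside 0.0201%). The other 9 libraries had 0 members at that level. The share of all genes that reached it was 0.00804%, 0.0362% and 0.0201% in corticosterone replicates 3 to 5. For testosterone replicates 1, 3, 4 and 5 it was 0.00402%, 0.0201%, 0.0121% and 0.0482%. It was 0.0161% in control replicate 4 and 0.0121% in control replicate 5. For 60 of the 102 members the highest of the 12 remaining libraries was a control, as it was for 35.2% of the genes that attained 0.5 CPM in any library. The median ratio over the 102 members was 1.96 in testosterone replicate 2 and lay between 0.920 and 1.02 in the 12 remaining libraries. Each ratio is to a median over these same 15 libraries, so values near 1 in most of them are partly built in.

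**Figure D1:**
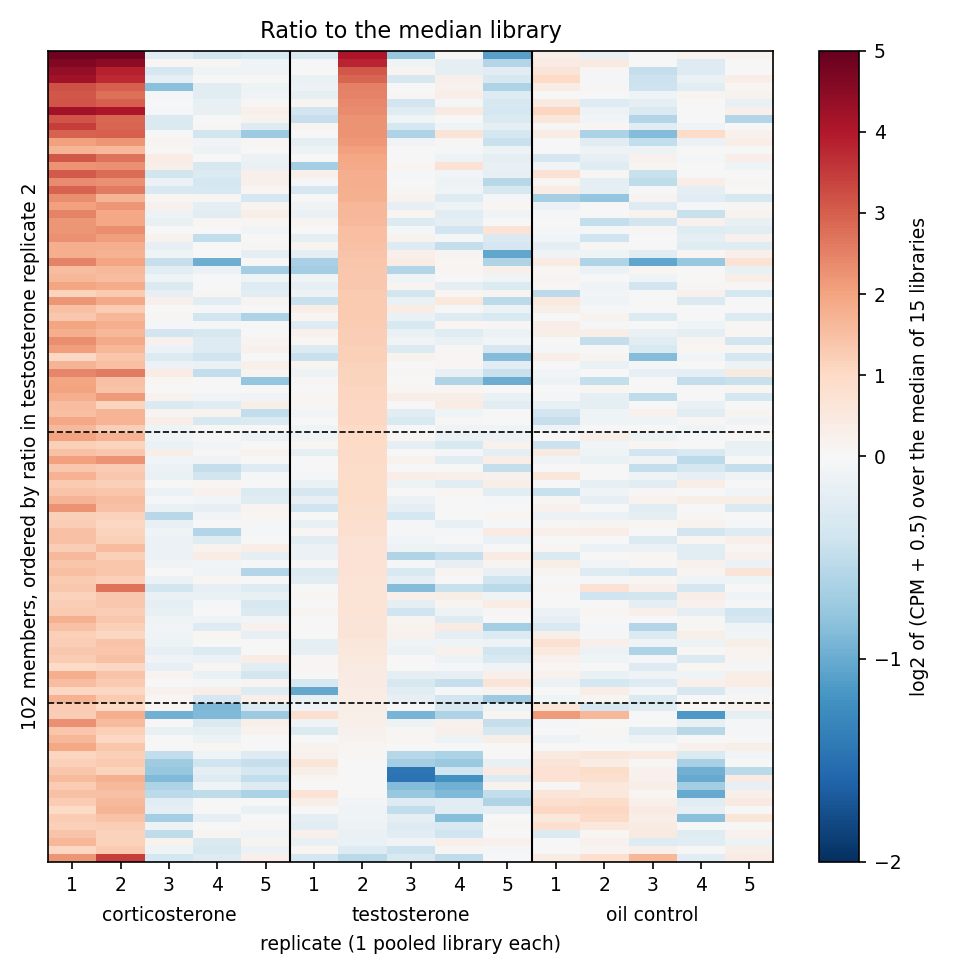
Ratio of each of the 102 members to its median over 15 libraries (colour, log2 scale), with members in rows ordered by their ratio in testosterone replicate 2 and libraries in columns by group and replicate. Dashed lines separate 48 members at 2 times the median or more in testosterone replicate 2, 34 between 1.25 and 2 times, and 20 under 1.25 times. The red columns are corticosterone replicates 1 and 2 and, for the upper rows, testosterone replicate 2, and the lowest rows show shades that differ among the controls.

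The levels in testosterone replicate 2 were graded, so the members were divided by their ratio there for description, with limits set after the values were seen. Of the 102, 48 were at least 2 times above the median, 34 lay between 1.25 and 2 times and 20 lay under 1.25 times. The limit at 2 falls within a continuous range, with 20 members between 1.8 and 2.2. A member with a low level is also held closer to a ratio of 1 by the added 0.5 CPM.

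The 48 members shared with testosterone replicate 2 were those with the higher ratios in the corticosterone pools. Their median ratio was 4.64 in corticosterone replicate 1 and 3.84 in corticosterone replicate 2, against 2.58 and 2.53 for the 34 and 2.51 and 2.54 for the 20. Of the 23 members at 4 times the median or more in both corticosterone pools, 21 were among the 48. The baseline of the 48 was low, with a median of 0.666 CPM, and 29 of the 48 stood under 1 CPM. The 34 were no higher, with a median of 0.552 CPM and 21 of the 34 under 1 CPM.

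As a sum, the 48 members reached 690 CPM (681 to 700) in corticosterone replicate 1, 590 CPM (580 to 600) in corticosterone replicate 2 and 370 CPM (363 to 378) in testosterone replicate 2. The other corticosterone pools had 78.0, 68.5 and 79.9 CPM in replicates 3 to 5. The other testosterone pools had 74.4, 80.8, 85.1 and 64.6 CPM in replicates 1, 3, 4 and 5, and the control pools had 97.8, 70.3, 69.3, 83.7 and 86.4 CPM in replicates 1 to 5. Outside the 3 high libraries the sum thus lay between 64.6 and 97.8 CPM, a 1.51-fold range in which the 3 groups overlapped. The sum was 8.75 times the median of those 12 libraries in corticosterone replicate 1, 7.48 times in corticosterone replicate 2 and 4.69 times in testosterone replicate 2.

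**Figure D2:**
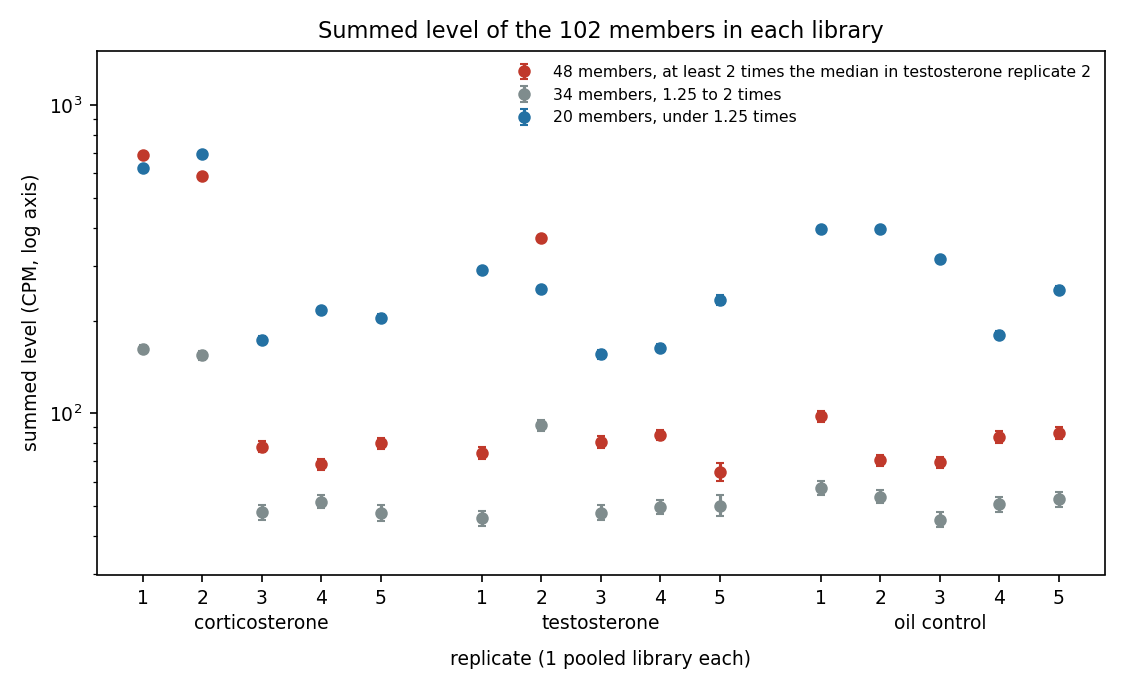
Summed level in CPM (log axis) of the members in each library, by group and replicate, with points for the 48, 34 and 20 members divided by their ratio in testosterone replicate 2 and bars for 95% Clopper-Pearson intervals. The 48 members stand at 690, 590 and 370 CPM in 3 libraries and between 64.6 and 97.8 CPM in the rest, whereas the 20 members spread from 155 to 397 CPM outside corticosterone replicates 1 and 2.

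The member furthest above the median in both corticosterone pools, ENSGALG00000036798, belonged to the 48. It had 64.8, 63.5, 1.42, 1.23 and 1.29 CPM in corticosterone replicates 1 to 5. In testosterone replicates 1 to 5 it had 1.31, 36.5, 0.808, 1.84 and 0.542 CPM, and in control replicates 1 to 5 it had 2.24, 1.51, 1.72, 1.98 and 2.03 CPM. Its levels lay in 2 separate ranges, with 3 libraries at 36.5 CPM or more and 12 at 2.24 CPM or less. The 3 high values rested on 2036, 1560 and 973 counts.

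The member with the next highest ratios was also high in these 3 libraries, at a lower level. It stood at 23.8, 21.2, 0.554, 0.538 and 0.431 CPM in corticosterone replicates 1 to 5, at 0.484, 13.4, 0.423, 0.362 and 0.155 CPM in testosterone replicates 1 to 5, and at 0.824, 0.829, 0.481, 0.323 and 0.478 CPM in control replicates 1 to 5. The most abundant of the 48 members had 144, 111, 14.5, 14.3 and 19.1 CPM after corticosterone, 14.2, 63.6, 18.9, 17.1 and 14.2 CPM after testosterone, and 23.2, 15.8, 18.0, 15.8 and 18.3 CPM in controls. For both, the same 3 libraries were high, and the other 12 spread from 0.155 to 0.829 CPM in the first of these genes and from 14.2 to 23.2 CPM in the second.

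**Figure D3:**
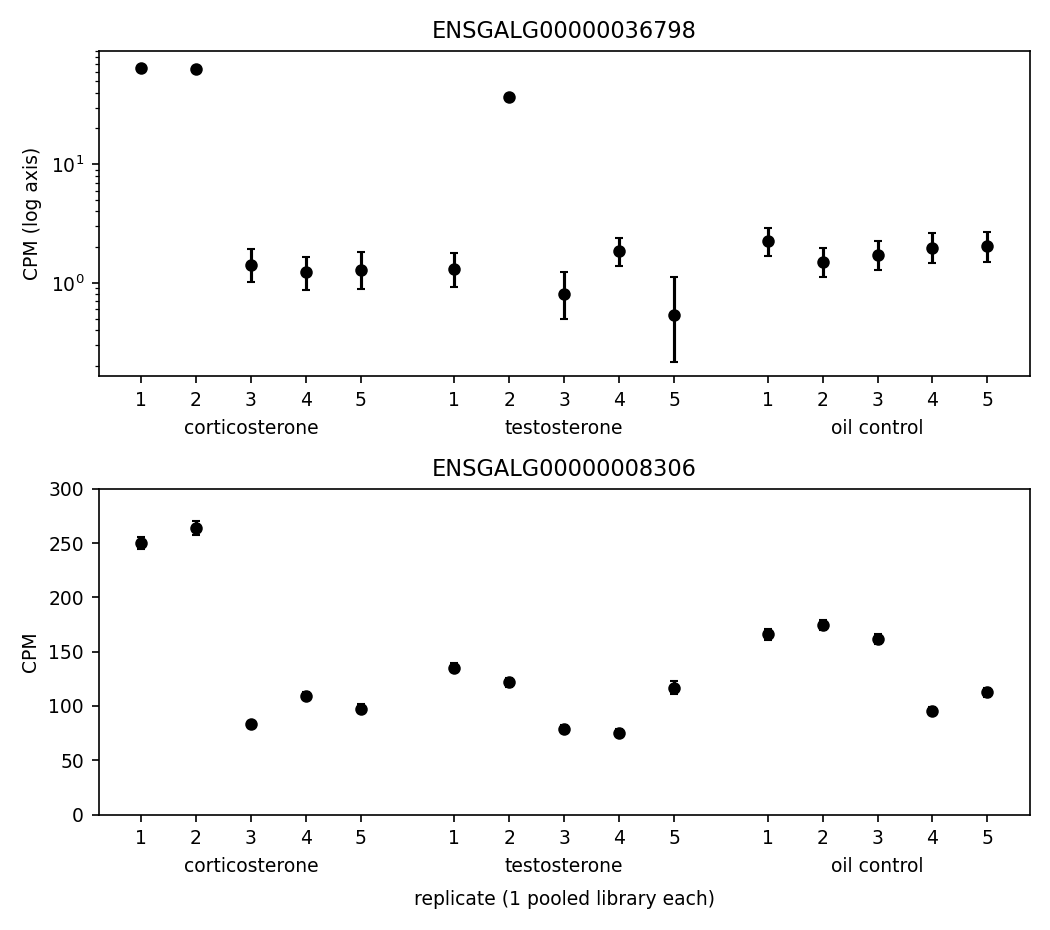
Level in CPM of the 2 named members in each library, by group and replicate, with 95% Clopper-Pearson intervals. ENSGALG00000036798 (upper plot, log axis) has 3 libraries at 36.5 CPM or more and 12 at 2.24 CPM or less, and ENSGALG00000008306 (lower plot, linear axis from 0) is highest in corticosterone replicates 1 and 2, with control replicate 2 next at 174 CPM.

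The size of the difference in the 3 high libraries varied from gene to gene among the 48 members, all of which are at least 2 times the median there by choice. The excess of a gene is here its CPM less the median of the 12 remaining libraries. The excess in testosterone replicate 2 was a median of 54.5% of that in corticosterone replicate 1 (quartiles 40.4% and 63.2%, range 24.1% to 140%). The excess in corticosterone replicate 2 was a median of 86.7% of that in corticosterone replicate 1 (quartiles 72.2% and 102%). Across the 48 genes, Pearson's r of the log2 ratios to the median was 0.884 between corticosterone replicate 1 and testosterone replicate 2, where Spearman's rho was 0.777. Pearson's r for the same pair of libraries was 0.252 across the 34 and -0.081 across the 20. The division cut ratios in testosterone replicate 2 to 1.29 to 1.98 in the 34 and 0.687 to 1.24 in the 20. In the 48 they ran from 2.01 to 16.7. A narrow range lowers r, so the values of r with that library cannot be compared between the 3 divisions. Between corticosterone replicates 1 and 2 Pearson's r was 0.959 across the 48, 0.376 across the 34 and 0.465 across the 20. In control replicate 1 the median ratio of the 48 was 1.00. Its r with corticosterone replicate 1 was 0.590 across the 48, -0.003 across the 34 and -0.384 across the 20. With testosterone replicate 2 it was 0.486 across the 48, -0.123 across the 34 and 0.170 across the 20. Control replicates 1 and 2 had an r of 0.229 across the 48. These coefficients are across genes, which are not independent replicates, and each pair of libraries shares the same median per gene. The controls apart, the values are those that chose and divided the members.

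In 35 of the 48, corticosterone replicate 1 was higher than corticosterone replicate 2, and in 42 testosterone replicate 2 was below both. In 40 of the 48, the excess in testosterone replicate 2 was between 25% and 75% of that in corticosterone replicate 1, and it was above 100% in 4. One of these 4 was a gene nearly silent elsewhere, at 1.76 CPM in testosterone replicate 2, 1.27 CPM in corticosterone replicate 1 and 1.14 CPM in corticosterone replicate 2, with no more than 0.0692 CPM in the other 12 libraries.

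**Figure D4:**
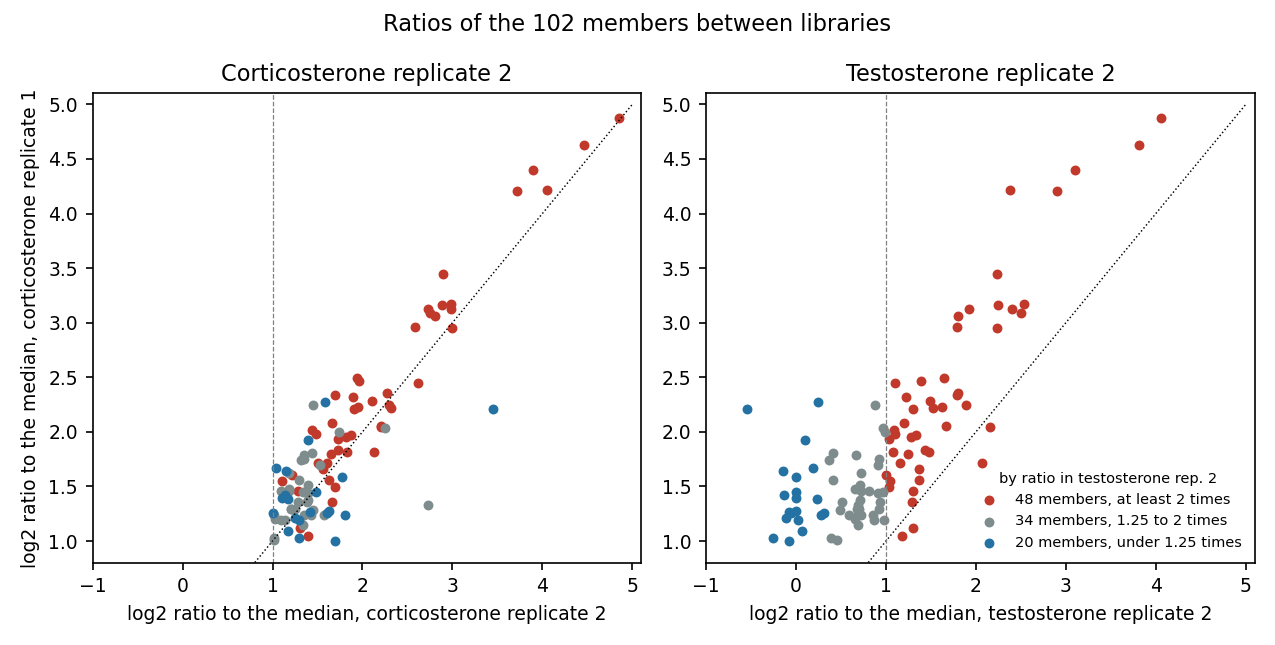
Log2 ratio to the median library of the 102 members in corticosterone replicate 1 (vertical) against corticosterone replicate 2 (left) and testosterone replicate 2 (right), with 1 point per gene and colours for the division by testosterone replicate 2. The dotted line marks equal ratios and the dashed line 2 times the median. The ratios of the 48 members (red) rise together in both plots (r of 0.959 and 0.884). On the right most of the 48 lie above the dotted line, with a median ratio of 4.64 in corticosterone replicate 1 and 2.80 in testosterone replicate 2. The 20 members (blue) sit near 0 in testosterone replicate 2 by the way they were divided off.

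The 34 members between 1.25 and 2 times had smaller ratios in corticosterone replicates 1 and 2 as well, and their ratio in testosterone replicate 2 was set by the division. They summed to 161 CPM (157 to 166) in corticosterone replicate 1, 154 CPM (149 to 159) in corticosterone replicate 2 and 91.4 CPM (87.8 to 95.1) in testosterone replicate 2, and to between 45.2 and 57.2 CPM in the other 12 libraries. The excess in testosterone replicate 2 was a median of 39.4% of that in corticosterone replicate 1.

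The 20 members under 1.25 times differed from the 48 in their levels among the controls. They were the more abundant members, with a median of 3.91 CPM, and they held 6 of the 8 members at 10 CPM or more. They summed to 623, 691, 173, 216 and 204 CPM in corticosterone replicates 1 to 5, to 292, 253, 155, 163 and 233 CPM in testosterone replicates 1 to 5, and to 397, 396, 317, 180 and 252 CPM in control replicates 1 to 5. Control replicates 1 and 2 were thus the next highest after the pools that chose the set. The sum in testosterone replicate 2 was 1.12 times the median of the 12 remaining libraries, a value near 1 that follows from how the 20 were divided off.

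The most abundant member of the whole set, ENSGALG00000008306, was one of these 20 and held the largest share of their sum. It had 250, 264, 83.2, 110 and 97.7 CPM in corticosterone replicates 1 to 5, 135, 122, 78.6, 75.5 and 117 CPM in testosterone replicates 1 to 5, and 166, 174, 162, 95.2 and 113 CPM in control replicates 1 to 5. Corticosterone replicates 1 and 2 lay above all other libraries, but controls alone spanned 95.2 to 174 CPM. Another of the 20 was higher in control replicate 1, at 41.9 CPM, than in corticosterone replicates 1 and 2, at 22.1 and 32.9 CPM, and it stood at 3.84 CPM in control replicate 4.

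In 15 of the 20 the highest of the 12 remaining libraries was a control (35.2% of the genes that attained 0.5 CPM in any library), as in 26 of the 48 and 19 of the 34. Control replicate 1 was that library in 11 of the 48. Of the 4 members at 2 times the median or more in control replicate 1, 2 were of the 48 and 2 of the 20. The highest control exceeded the lowest by a median of 2.05-fold over the 20 (CPM plus 0.5), against 1.45-fold over the 48 and 1.44-fold over the 34. One of the 20 was nevertheless steady outside corticosterone replicates 1 and 2, with 60.9 and 37.6 CPM in that pair, 14.5 CPM in testosterone replicate 2 and 8.75 to 14.7 CPM in the other 12 libraries. Another had 16.5 and 39.8 CPM in corticosterone replicates 1 and 2, 2.03 CPM in testosterone replicate 2 and 11.1 CPM in control replicate 3, the highest of the remaining libraries.

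Outside the 3 high libraries the members did not vary as one group. Over the 12 remaining libraries, the median Pearson correlation of log2(CPM + 0.5) between pairs of genes was 0.066 among all 102 members, 0.117 among the 48, 0.037 among the 34 and 0.320 among the 20, beside 0.022 over all 14260 genes tested. Correlations above 0.5 made up 12.5% of the pairs among the 48, 40.5% among the 20 and 11.5% over all genes. Between a member of the 48 and a member of the 20 the median was 0.027. Few reads per gene lower such values, so members with a median of at least 1 CPM were also taken alone. Their medians were 0.089 for 19 of the 48 and 0.631 for 13 of the 20, beside 0.028 over 12577 genes tested at that level. Without control replicates 1 and 2, which were high for the 20, the median among the 20 was 0.351. These are descriptions over 12 libraries that share the same scaling, and the limits that made the groups were set after the data were seen.

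**Figure D5:**
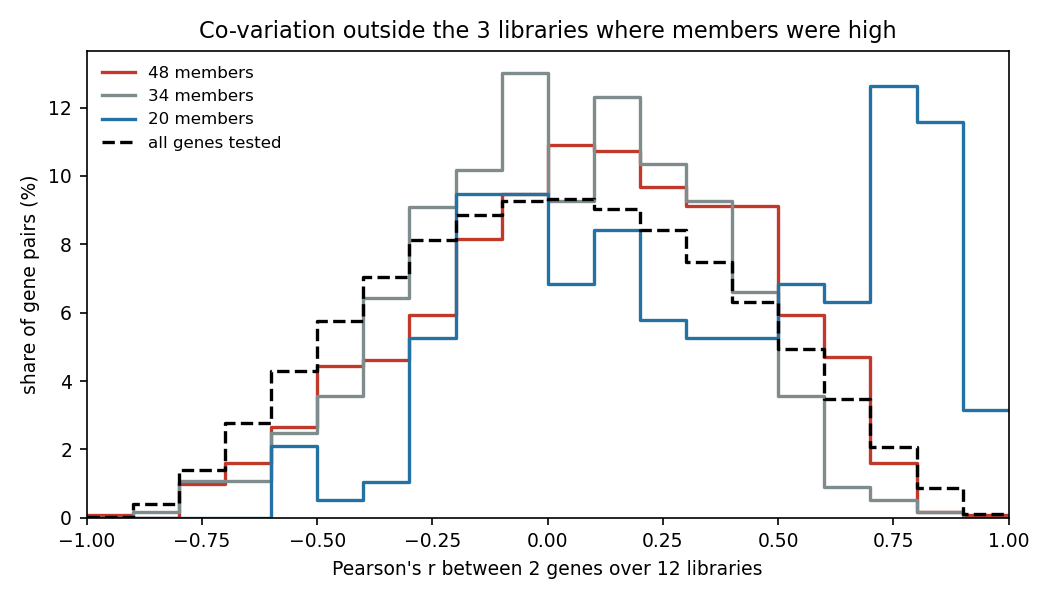
Distribution of Pearson's r between pairs of genes over the 12 libraries other than corticosterone replicates 1 and 2 and testosterone replicate 2, in bins of 0.1, as a share of pairs. The 48 and 34 members have medians of 0.117 and 0.037, beside 0.022 for all genes tested, while the 20 members have a second mode, with 40.5% of pairs above 0.5.

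Testosterone against control asked whether the androgen altered transcripts of the disc, and the rule put no threshold on a library of either group. Of the 102, 83 passed the filter on low counts, which ran over all 15 libraries, and were tested. With the filter and fit on the groups compared alone 74 passed, so some of the 83 passed only with the corticosterone pools, among them the pair that chose the set, counted in the filter. With edgeR's quasi-likelihood test, 0 of the 83 passed an adjusted p of 0.05 (0% of all 14260 genes did), and 0 did with DESeq2 or limma voom. The spread in these fits draws also on the corticosterone pools, which the rule made uneven for the members. That makes a call of a member less likely. On the groups compared alone 0 of 74 passed the adjusted threshold with edgeR. At an unadjusted p under 0.05 edgeR gave 0 members higher and 1 lower, where 1.86% and 1.54% of all genes were. DESeq2 gave 0 higher and 2 lower, beside 269 and 190 of all 14260 genes. Limma voom gave 1 higher and 2 lower, beside 515 and 509 of all genes. On the groups compared alone edgeR gave 3 higher and 5 lower of 74, where 2.01% and 1.98% of all genes were. In the fit over 15 libraries the count of lower members was 4 without control replicate 4 (306 of 14384 genes) or without corticosterone replicate 2 (260 of 14373). It was 2 without control replicate 5 (169 of 14385). It was 0 without control replicate 1, 2 or 3 or without testosterone replicate 1, 2, 3 or 4. Between 165 and 313 of all genes were lower in the fits named that gave 0. The median log2 fold change over the 83 members was 0.42, beside -0.00 over all genes, and without testosterone replicate 2 it was -0.15. The higher direction was thus lost without that 1 library of 5.

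The mean of ENSGALG00000036798 was 8.20 ± 15.8 CPM in the testosterone pools and 1.89 ± 0.284 CPM in the control pools (SD, n = 5 each). Its log2 fold change was 2.16 ± 1.51 (SE), with an edgeR adjusted p of 0.999. It was -0.63 without testosterone replicate 2, 0.84 with the replicate number as a block and 0.47 with limma voom. ENSGALG00000008306 averaged 106 ± 26.9 CPM in the testosterone pools and 142 ± 35.7 CPM in the control pools (SD, n = 5 each). Its log2 fold change was -0.44 ± 0.33 (SE), with an edgeR adjusted p of 0.999. Both SEs draw also on the spread within the corticosterone pools, which the rule made uneven. The unadjusted edgeR p of ENSGALG00000036798 was 0.178 in this fit and 0.105 on the groups compared alone. It was 0.0700 without corticosterone replicates 1 and 2, a fit chosen after the data were seen. For ENSGALG00000008306 these were 0.206, 0.0805 and 0.0594. Neither gene was called in the edgeR fits whose unadjusted p is given here, where the adjusted p was at least 0.992. The limma voom adjusted p was 0.947 for ENSGALG00000036798 and 0.743 for ENSGALG00000008306.

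The remaining corticosterone pools, replicates 3 to 5, were set against the 5 controls in a fit without replicates 1 and 2. With edgeR 0 of 83 members tested passed an adjusted p of 0.05 (0% of all 14436 genes did), as with DESeq2 and limma voom. At an unadjusted edgeR p under 0.05, 0 members were higher and 7 were lower, where 2.78% and 4.12% of all genes were, and the 7 all belonged to the 20. The spread in this fit draws also on testosterone replicate 2, which the division made high for the 48 and near the median for the 20. That makes a call among the 48 less likely, so nothing is read from where the 7 fell. DESeq2 gave 0 higher and 10 lower members, beside 410 and 553 of all 14436 genes. Limma voom gave 0 and 12, beside 955 and 1152 of all genes. On the groups compared alone 77 members passed the filter, and 0 were higher and 11 lower, where 2.54% and 4.22% of all genes were. The count of 7, beside 595 of 14436 genes, was 2 without corticosterone replicate 3 (378 of 14573 genes) or without corticosterone replicate 4 (471 of 14581). It was 3 without control replicate 1 (418 of 14443), 4 without control replicate 2 (464 of 14394) and 11 without control replicate 4 (849 of 14443). The median log2 fold change was -0.05 over 40 of the 48 and -0.68 over 18 of the 20, beside -0.00 over all genes. No member was thus called higher than controls in these 3 pools, and among the 8 libraries compared the sum of the 20 was highest in control replicates 1 to 3.

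ENSGALG00000036798 stood at 1.23 to 1.42 CPM in corticosterone replicates 3 to 5 and at 1.51 to 2.24 CPM in controls, and the log2 fold change was -0.55 ± 1.45 (SE), with an edgeR adjusted p of 0.952. That SE draws on the spread within the testosterone pools, which were in the fit though not compared. At a log2 fold change of -0.55 the unadjusted edgeR p was 0.715 in this fit, 0.0495 without testosterone replicate 2 (adjusted p 0.739) and 0.00986 on the groups compared alone (adjusted p 0.716). With the replicate number as a block the log2 fold change was -0.02. ENSGALG00000008306 stood at 83.2 to 110 CPM in the same pools and at 95.2 to 174 CPM in controls, and the log2 fold change was -0.58 ± 0.24 (SE), with an edgeR adjusted p of 0.706. Its unadjusted edgeR p was 0.0353 in the fit over 13 libraries and 0.0231 on the groups compared alone (adjusted p 0.716). It was 0.102 with the replicate number as a block. Limma voom gave an unadjusted p of 0.00428 and an adjusted p of 0.179. The ranges overlapped for the second gene and not for the first. For the first, the nearest libraries were corticosterone replicate 3 at 1.42 CPM (95% Clopper-Pearson interval 1.02 to 1.92) and control replicate 2 at 1.51 CPM (1.12 to 1.98). Their intervals overlapped, so the gap lay within counting error.

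Corticosterone against control over all 5 pools includes the libraries that chose the set, so no fold change or test of the members is given for it.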

How the data were processed

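The deposited file is a matrix of raw read counts, 24881 Ensembl genes by 15 columns, each column matched to a sample by its label. The submitters' processing notes list TopHat2 2.0.14 and HTSeq 0.6.1p1, and the kit was strand-specific, per the labels' protocols. The genome build, annotation and strand setting are not stated in the material at hand, so genes that overlap, lie antisense or have close paralogs may share reads.

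CPM used column totals. Counts were fitted with edgeR 4.0.16 in R 4.3.3 (filterByExpr with a minimum count of 10, TMM, robust quasi-likelihood, 1 mean per group) over 15 libraries, or 13 without corticosterone replicates 1 and 2, with Benjamini-Hochberg adjustment over all genes tested. SEs were the log2 fold change over the root of F. The fits were tested on simulated counts, with changes put only into genes of a mean count of at least 50 and into every library of a group. Whether a change in scarcer members, or in a single pool, would be found was not tested. Alternatives included limma 3.58.1 voom and DESeq2 1.42.0. The members and lists were chosen with earlier results of these data known. Marker lists by symbol could not be applied, and with no symbols the naming rule gave 2 genes: the member of highest median CPM, and the member of largest lower ratio in the 2 corticosterone pools among those with a summed count of at least 50.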

Additional observations from a re-analysis of the deposited data

Results flagged for a closer look

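In each group of 5 libraries the highest or lowest value was set against the gap to its neighbour, and 33 such groups were checked, where about 1.65 are far from the rest by chance. There were 7 values far from the others, several of them linked measures of the same library. Some of the 7 were set by how the members were divided, and the chance figure does not hold for those. No conclusion is therefore drawn from the count of 7 beside that figure.

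Testosterone replicate 2 stood apart in the summed level of the 48 members (370 CPM, against 64.6 to 85.1 CPM in the other testosterone pools). The 34 members had 91.4 CPM there, against 45.6 to 50.2 CPM. Both values follow from how the 48 and the 34 were divided off, by their ratio in that library. It had 48 members and 50 genes in all at 2 times the median or more, where the other testosterone pools had 0 members and 1 to 12 genes. Its level of ENSGALG00000036798 was 36.5 CPM, against 0.542 to 1.84 CPM.

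Testosterone replicate 5 was far below the other testosterone pools in total count (12913729) and in genes detected (17032, against 17855 or more).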

How the results depend on the processing

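The number of members depended on the offset and the threshold. It was 102 as chosen, 177 with an offset of 0.1 CPM, 50 with 2 CPM, and 231, 41 and 23 with thresholds of 1.5, 3 and 4 times. It was 101 with the median over controls (92 shared with the 102), 107 with the median over the 13 other libraries, and between 96 and 104 with 1 library left out of the median. The count of members raised in testosterone replicate 2 was 48, or 94 and 24 with offsets of 0.1 and 2 CPM, and 46 to 48 with a library left out. The summed level there over the median library was 1.83, and 1.88 with TMM scaling, 1.89 with RLE scaling, 1.88 with an offset of 2 CPM, 1.79 with genes kept by the low-count filter and 1.76 to 1.94 with a library left out. The cause of these changes was not tested.

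In the tests, 0 members passed the adjusted threshold in all 27 alternatives for testosterone against control and all 24 for corticosterone replicates 3 to 5 against control, leaving out each library included. The log2 fold change of ENSGALG00000036798 for testosterone against control, 2.16, reversed to -0.63 without testosterone replicate 2 and was up to 2.46 with another library left out. It was 0.47 with limma voom and 0.84 with the replicate block, and for corticosterone replicates 3 to 5 against control it was -0.02 with the block, against -0.55. A fit of testosterone against control without corticosterone replicates 1 and 2 was chosen after seeing the data and also gave 0. Of the 83 members tested in it, 5 were higher and 5 lower at an unadjusted edgeR p under 0.05, beside 312 and 269 of all 14436 genes. The replicate block gave 0 in both comparisons. At an unadjusted edgeR p under 0.05 it gave 5 and 2 members lower, beside 237 of 14260 and 320 of 14436 genes. With the replicate block the median log2 fold change for corticosterone replicates 3 to 5 was 0.07, against -0.17 without it. Labels do not say that equal replicate numbers pair the pools, and deviations of 15 same-number pairs correlated between -0.183 and 0.226, with 4 over 0.1. The highest was between corticosterone replicate 2 and testosterone replicate 2, both among the high libraries. Pairs of unlike number were not taken for comparison, so these values cannot show whether the pools were paired. Members under 1 CPM rest on few reads outside the high libraries, which limits what can be said of their variation there.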
